A study of Mus musculus with 18 samples.

Results

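The regenerating (Reg) genes examined here are the 5 genes Reg1, Reg3a, Reg3b, Reg3g and Reg4, taken by their symbols from a table of 36757 genes and followed through all 18 libraries. These members were selected on earlier results of the same data, among them the level of Reg3g in RNF138-/- CAC tissue, so the difference between the genotypes in CAC is given below as a description without a test. The mouse genome has 2 further Reg genes in the table, Reg2 and Reg3d, which serve as neighbours for comparison. RNA was sequenced from C57BL/6 mice, either wild-type (RNF138 fl/fl in the study's methods) or labelled RNF138-/-. The study's methods give 6 to 8 weeks as the age at which the models were induced, so the mice were older when tissue was taken. The colitis groups were colon tissue of mice that drank 2% dextran sodium sulphate (DSS, a detergent-like polymer that injures the colonic epithelium) for 7 days and then water for 14 days, a cycle repeated 2 times, and that were killed 4 weeks after the last cycle. The CAC groups (colitis-associated cancer) were colon tissue of mice given the carcinogen azoxymethane (AOM) at 10 mg/kg 4 days before such DSS cycles. The organoid groups were cultures in matrigel grown from CAC tumours, kept in a medium with EGF, N2 and B27. Each of the 6 groups held 3 libraries, with between 11514716 and 24390082 counts a library, and 3 counts corresponded to 0.123 to 0.261 CPM (counts scaled by library size). Both sexes were used, and how the deletion was made is not given in the sources used here.

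Reg proteins are small secreted lectins with a C-type lectin fold. Reg3b and Reg3g are antibacterial proteins of the gut epithelium that keep bacteria away from its surface, and their transcription is known to be raised by interleukin-22 and related cytokines acting through the transcription factor STAT3. Reg4 is a marker of the deep crypt secretory cells of the colon, which lie between the stem cells at the crypt base, and Reg1 and Reg2 are made in quantity by the acinar cells of the pancreas. EXTL3 has been described as a receptor for several Reg proteins.

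All Reg genes except Reg4 lie side by side. In GRCm38 (mm10) with the GENCODE M21 annotation, Reg3b (ENSMUSG00000071356.7, chr6:78370657-78373466, plus strand), Reg3a (ENSMUSG00000079516.2, chr6:78380709-78383827, plus strand), Reg1 (ENSMUSG00000059654.7, chr6:78422711-78428667, plus strand) and Reg3g (ENSMUSG00000030017.2, chr6:78466269-78468872, minus strand) fall with Reg2 and Reg3d in a stretch of 98.2 kb that holds these 6 genes and no other gene of the table. Reg4 (ENSMUSG00000027876.4, chr3:98222156-98236748, plus strand) stands alone on chromosome 3. Among stretches of 50 bases in the annotated transcripts, 0% of those of Reg3a, Reg3b, Reg3g and Reg4 were also found in a transcript of another gene, so that their reads can be told apart, against 3.65% for Reg1 and 11.3% for Reg2.

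The stretches just before the RefSeq start sites of Reg3b and Reg3g are shown because these 2 genes moved together across the tissue libraries, with those of Reg3a, which lies between them and stayed near 0, and of Reg4 for contrast. Each is 154 bases long and runs from 178 to 25 bases before the RefSeq start of the gene (GRCm38.p6). For Reg3b that start lies 228 bases inside the M21 gene, so its whole stretch falls within the gene as given above, while for the other 3 genes the starts differ by at most 2 bases. Capitals mark matches on either strand to 4 motifs: TTCNNNGAA (the core bound by STAT factors), GGGNNNNNCC (a loose form of the NF-kB motif), CACCTG (an E-box) and CTTTGA (the core bound by TCF/LEF factors).
Reg3b, chr6:78370707-78370860, plus strand: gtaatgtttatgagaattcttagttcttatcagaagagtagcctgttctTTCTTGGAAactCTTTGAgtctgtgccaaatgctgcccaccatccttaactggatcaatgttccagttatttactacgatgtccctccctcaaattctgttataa
Reg3g, chr6:78468899-78469052, minus strand: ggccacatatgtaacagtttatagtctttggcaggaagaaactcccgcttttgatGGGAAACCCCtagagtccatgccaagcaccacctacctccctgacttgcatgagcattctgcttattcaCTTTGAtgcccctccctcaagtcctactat
Reg3a, chr6:78380531-78380684, plus strand: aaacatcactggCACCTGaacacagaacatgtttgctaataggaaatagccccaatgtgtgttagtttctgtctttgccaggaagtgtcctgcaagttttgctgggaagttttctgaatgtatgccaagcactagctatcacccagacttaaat
Reg4, chr3:98221978-98222131, plus strand: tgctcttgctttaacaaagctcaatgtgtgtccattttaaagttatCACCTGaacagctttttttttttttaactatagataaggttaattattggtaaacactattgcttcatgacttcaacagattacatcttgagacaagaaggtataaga

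Aligned with each other, the Reg3b and Reg3g stretches had the same base at 95 of 152 aligned positions (62.5%), and the longest identical run was 11 bases. Reg3g and Reg3a shared 73 of 103 aligned positions (70.9%), and Reg3b and Reg3a shared 63 of 96 (65.6%). The STAT core occurred in the stretch of Reg3b alone among the 4, from 129 to 121 bases before its start, and in 4.2% of the same stretch of 32851 mouse promoters. The loose NF-kB form occurred only before Reg3g among the 4, and in 34.5% of all promoters. The TCF/LEF core occurred before both Reg3b and Reg3g and in 8.62% of promoters. The E-box occurred before Reg3a and Reg4 and in 11.0% of promoters. These matches describe letters in these windows only.

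The gene targeted in the study was examined first. Rnf138 had 19.6 ± 4.95 CPM (SD, n = 3) in wild-type colitis tissue and 18.8 ± 0.757 CPM in the tissue labelled RNF138-/-. In CAC it was at 21.5 to 27.5 CPM in the wild type and 39.6 to 45.7 CPM in the libraries labelled RNF138-/-, and in organoids at 37.7 to 55.6 and 42.8 to 50.2 CPM. The libraries labelled RNF138-/- thus lay inside the wild-type range in colitis and organoids, with a slightly lower mean in both, and above it in CAC. Which exons the deletion removes is not given in the sources used here, so the counts do not check the genotype. The libraries named KO below are those so labelled.

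Several libraries stood apart from the others of their group. Acinar genes of the pancreas other than Cela1, which every group contained at a mean of 30.7 to 185 CPM, summed to 1849 CPM in replicate 2 and 119.5 CPM in replicate 3 of wild-type CAC, and to 1.34 to 11.1 CPM in all other libraries. Homeobox genes of the distal colon, among them Hoxb13, summed to 29.4 CPM in replicate 3 of wild-type CAC against 254 and 326 CPM in the other 2, and to 27.8, 51.2 and 129 CPM in KO colitis replicates 3, 2 and 1 against 169 to 255 CPM in the wild type. The 3 KO CAC libraries held 163 to 326 CPM of smooth muscle transcripts where wild-type CAC held 3054 to 10120 CPM, and 2216 to 3485 CPM of goblet and deep crypt secretory markers against 14080 to 43430 CPM. In organoids, 4 Y-linked genes were at 0 in every wild-type library and summed to 242 to 281 CPM in every KO library, so the genotype and the sex of the source cannot be told apart there. In tissue they were present in every library, with sums of 114 to 210 CPM in colitis and 148 to 228 CPM in CAC. A Y-linked covariate thus follows the level of these genes in tissue and does not separate libraries with them from libraries without them. In bulk tissue, fewer cells of a type and less RNA per cell cannot be told apart either.

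Reg3b was close to absent from wild-type colitis tissue and present in every KO colitis library. Its level was 0.335, 0 and 0.186 CPM in wild-type replicates 1 to 3 (6, 0 and 3 counts). In KO tissue it was 5.20, 5.69 and 469 CPM. The groups did not overlap, and replicate 3 was far above the other 2 KO libraries. Reg3g, the closest relative of Reg3b in pattern, had 0.837, 0.224 and 1.18 CPM in the wild type. In KO tissue it had 2.99, 3.83 and 112 CPM. Again the groups did not overlap, and the same KO library was highest. KO libraries lay entirely above the wild-type libraries for both of these members, as they did for 8.86% of all 16623 genes tested in colitis.

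The log2 fold change of Reg3b between the genotypes in colitis was 9.81 (SE 2.34, n = 3 per group, edgeR adjusted p = 0.202), and that of Reg3g was 5.75 (SE 1.56, edgeR adjusted p = 0.242). Reg3b passed the filter on low counts only through the KO libraries, so that in the fits with this filter, the block included, it could be called only as higher in the KO, and Reg3g would not have passed on its wild-type libraries alone. By edgeR, none of the 3 members that passed that filter was called (adjusted p below 0.05, change of 2-fold or more), where 0.0902% of all genes tested were. Without adjustment the p of edgeR was 0.00299 for Reg3b and 0.00618 for Reg3g, and DESeq2 gave no adjusted p for either. No label pairs the libraries by number. Deviations of same-numbered colitis libraries from their group means correlated by 0.252, 0.107 and 0.538, which overlaps the values in CAC (0.0268 to 0.221). With the replicate number as a block, Reg3b was called (log2 fold change 9.24, edgeR adjusted p = 0.0288) while Reg3g was not (4.58, adjusted p = 0.092). Such a pairing is read from the same data, so the block is an alternative only. The fit with the block called 89 genes in all against 15 without it.

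The filter and a single library bore on these values. Without KO replicate 3, the change was 4.90 for Reg3b (adjusted p = 0.017) and 2.18 for Reg3g (adjusted p = 0.135). Without the filter on low counts, both were called, with adjusted p of 7.48e-05 and 0.000582, and with a Y-linked covariate they were too (0.0137 and 0.0266). Other alternatives went the other way. Over the 11 that gave an adjusted p, it ran from 7.48e-05 to 0.677 for Reg3b and from 0.000582 to 0.763 for Reg3g. KO replicate 3 was also the colitis library with the lowest summed level of distal colon genes and of goblet and deep crypt secretory markers (12430 CPM, against 25930 to 38000 CPM in the other 5), and it held 7.06 CPM of Lyz1. Retnlb, which encodes the goblet cell product resistin-like molecule beta, was at 1806 and 1739 CPM in KO replicates 1 and 2 and at 96.3 CPM in replicate 3, against 3.63 to 5.07 CPM in the wild type. Retnlb and Reg3b were thus both higher in KO libraries, but highest in different ones. The part of these markers in the levels of Reg3b and Reg3g was not tested.

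Reg4 did not follow them in colitis. It was at 105, 192 and 96.7 CPM in wild-type tissue and at 190, 85.9 and 66.3 CPM in KO tissue, with overlapping ranges. The log2 fold change was -0.21 (SE 0.42, adjusted p = 0.913). Reg1 and Reg3a had at most 6 counts in any colitis library and did not pass the filter.

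**Figure D1:**
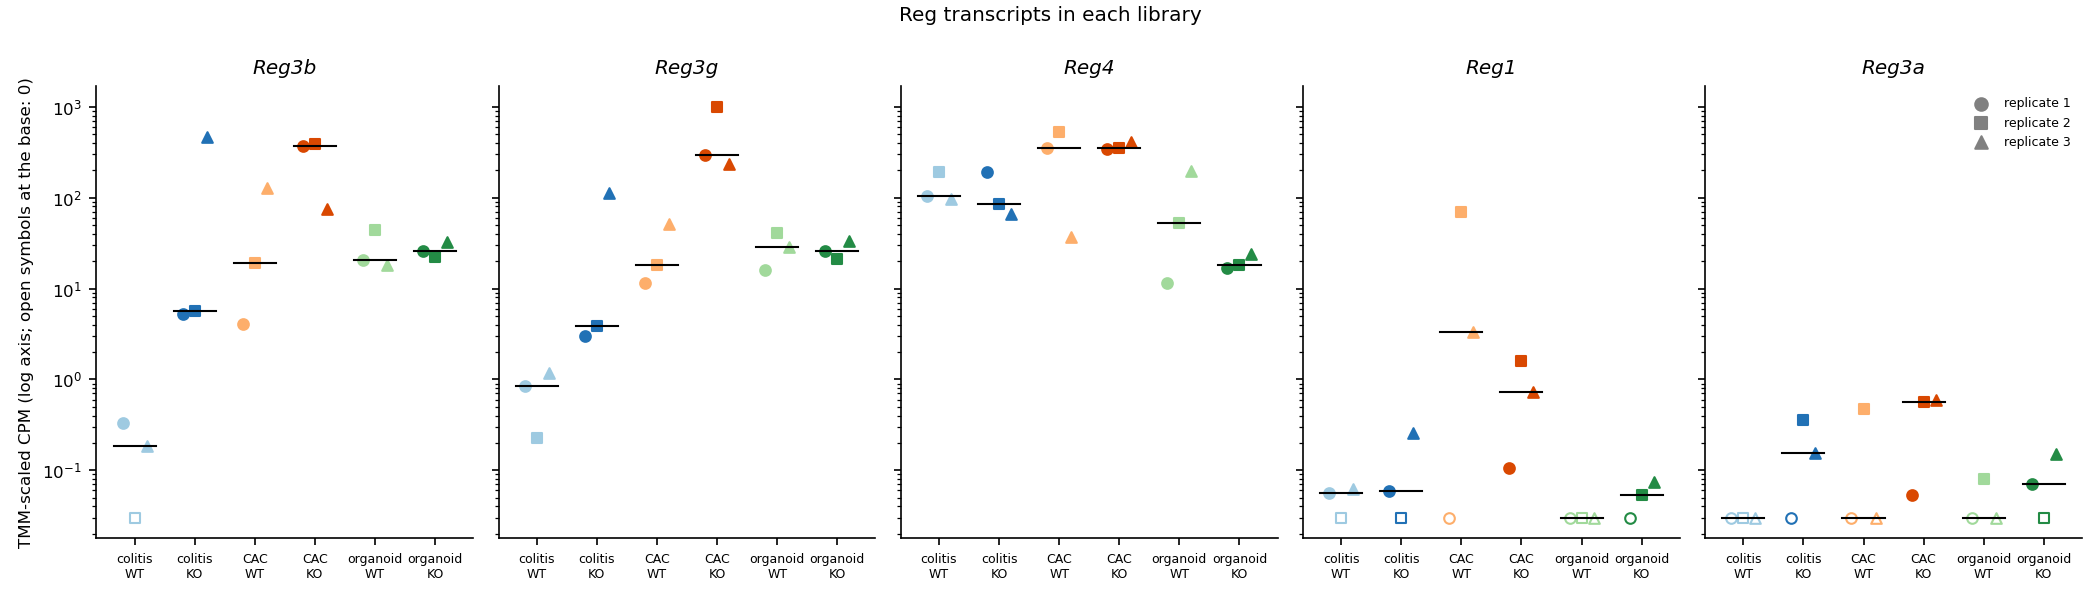
TMM-scaled CPM (log axis) of each Reg gene in each of the 18 libraries, with colitis in blue, CAC in orange and organoids in green, the wild type in the paler shade, symbols by replicate number, bars at the median of 3 and open symbols at the base for a level of 0. Reg3b and Reg3g climb from wild-type colitis to KO CAC and lie within one range in organoids, the ranges of Reg4 in the 2 genotypes overlap in each model, and Reg1 reaches 70.2 CPM in 1 library.

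In CAC tissue the KO libraries carried more Reg3g than the wild-type libraries. Reg3g was at 11.4, 18.3 and 51.3 CPM in wild-type replicates 1 to 3. In KO libraries it was at 296, 1005 and 236 CPM. The lowest KO library exceeded the highest wild-type library, as it did for 24.4% of genes tested in CAC, a share against which nothing is read here because this contrast chose the members. The log2 fold change was 4.19 (SE 0.84), and it lay between 3.26 and 5.08 when single libraries were left out. Of all genes tested in this contrast 5.37% were called, and nothing is read from that share for the members.

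Reg3b was less regular in CAC. It was at 4.06, 19.1 and 128 CPM in wild-type tissue. In KO tissue it was at 366, 386 and 74.3 CPM, so that KO replicate 3 fell within the wild-type range. The log2 fold change was 2.39 (SE 1.23), and it was 4.53 without wild-type replicate 3, the library with few distal colon transcripts. Reg4 was at 356, 530 and 36.5 CPM in the wild type and at 347, 354 and 406 CPM in the KO, with a log2 fold change of 0.22 (SE 0.78). The 3 KO libraries were close together and inside the range of the wild type, whose replicate 3 was again the one apart. Without that library the change was -0.30.

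Reg1 in CAC was carried by 1 library, with 1495 counts against 0 to 39 in the other 5. It was at 0, 70.2 and 3.31 CPM in wild-type replicates 1 to 3 and at 0.106, 1.58 and 0.723 CPM in the KO, and the log2 fold change of -4.94 (SE 2.03) shrank to -1.005 without wild-type replicate 2. Reg2, its near neighbour in the genome, was at 0, 40.8 and 1.42 CPM in the same wild-type libraries and at no more than 0.0531 CPM in the KO. Ctrb1, which encodes the digestive enzyme precursor chymotrypsinogen B, was at 0.0615, 511 and 32.3 CPM in them. The 5 genes most like Reg1 over the 12 tissue libraries were Pla2g1b (r = 0.972), Try5, Ctrc, Reg2 and 2210010C04Rik (r = 0.953), of which Pla2g1b, Try5 and Ctrc encode secreted pancreatic enzymes. These r are Pearson correlations of log2 CPM after the mean of each model was removed, among 15998 genes, and describe libraries that share their tissue and depth. In KO CAC replicates 2 and 3, Reg1 was at 1.58 and 0.723 CPM while Ctrb1 was at 0.0809 and 0.136 CPM.

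**Figure D2:**
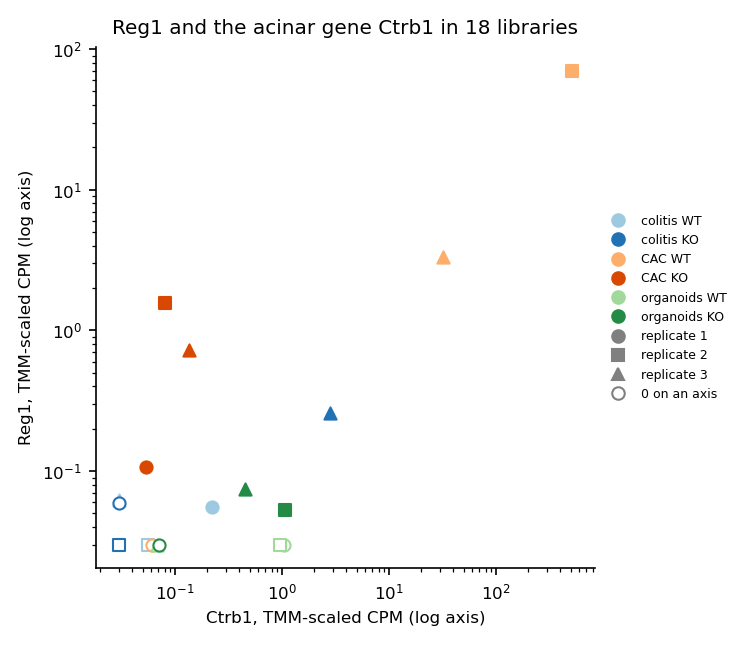
Reg1 against the pancreatic acinar gene Ctrb1, both as TMM-scaled CPM on log axes, for the 18 libraries, coloured by group with symbols by replicate number and open symbols for a level of 0 on either axis. Replicates 2 and 3 of wild-type CAC lie at the upper right (511 and 32.3 CPM of Ctrb1), and the KO CAC replicates 2 and 3 lie above the other libraries of as little Ctrb1.

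Reg3a remained near its detection limit in every group. It had 0 counts in all wild-type colitis libraries, 0 to 6 in KO colitis, 0 to 10 in wild-type CAC, 1 to 14 in KO CAC and 0 to 2 in organoids. The highest level was 0.588 CPM, and the gene passed the filter in no comparison. Reg3d, which lies between Reg3b and Reg3a, reached 2.91 CPM in wild-type CAC replicate 2 and at most 0.407 CPM elsewhere.

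CAC was then compared with colitis within each genotype, which sets mice given the carcinogen before DSS beside mice given DSS alone. No processing batch is given in the labels, so model and batch cannot be told apart here or in any later comparison between models. In the wild type 13.6% of all genes were called. Reg3b rose (log2 fold change 8.11, SE 2.04, edgeR adjusted p = 0.0109), from summed counts of 9 over the 3 colitis libraries to 1827 over the 3 CAC libraries. Reg3g rose as well (5.17, SE 1.29, adjusted p = 0.0104). Both calls were lost without wild-type colitis replicate 2 (adjusted p = 0.0519 and 0.0536). Over all alternatives the adjusted p ran from 1.70e-06 to 0.0519 for Reg3b and from 7.00e-05 to 0.0536 for Reg3g.

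Reg1 passed the filter only through CAC, so that it could not have been called lower there. It was called in this comparison (adjusted p = 0.00724), with 2 counts in wild-type colitis against 1530 in wild-type CAC, of which 1495 came from the library richest in acinar transcripts. The ratio of the summed counts, scaled to depth, was 825 with an exact 95% interval from 228 to 6817 that covers counting error only. Without that library the log2 fold change fell from 9.07 to 5.09 (adjusted p = 0.0496). Reg4 differed less (1.23, SE 0.81, adjusted p = 0.30).

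In the KO, Reg3b did not differ between CAC and colitis by more than the spread (log2 fold change 0.78, SE 1.26, adjusted p = 0.616), and this rested on KO colitis replicate 3, without which the change was 5.61 (adjusted p = 0.00126). The change of Reg3g was 3.69 (SE 1.07), and 7.17 without that library. Reg4 changed by 1.70 (SE 0.82, adjusted p = 0.0886, and 0.0266 without the filter). Reg1 changed by 2.80 (SE 1.87, adjusted p = 0.218). None of the 3 members tested (Reg1, Reg3b and Reg4) was called by edgeR, where 37.1% of all genes were. None of the 3 had an unadjusted edgeR p under 0.05 (lowest 0.0539, for Reg4), where 11653 of all 19390 genes did, and DESeq2 called none of them (adjusted p between 0.108 and 0.708). The KO CAC libraries bore on the choice of the members, so nothing further is read from these tests.

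**Figure D3:**
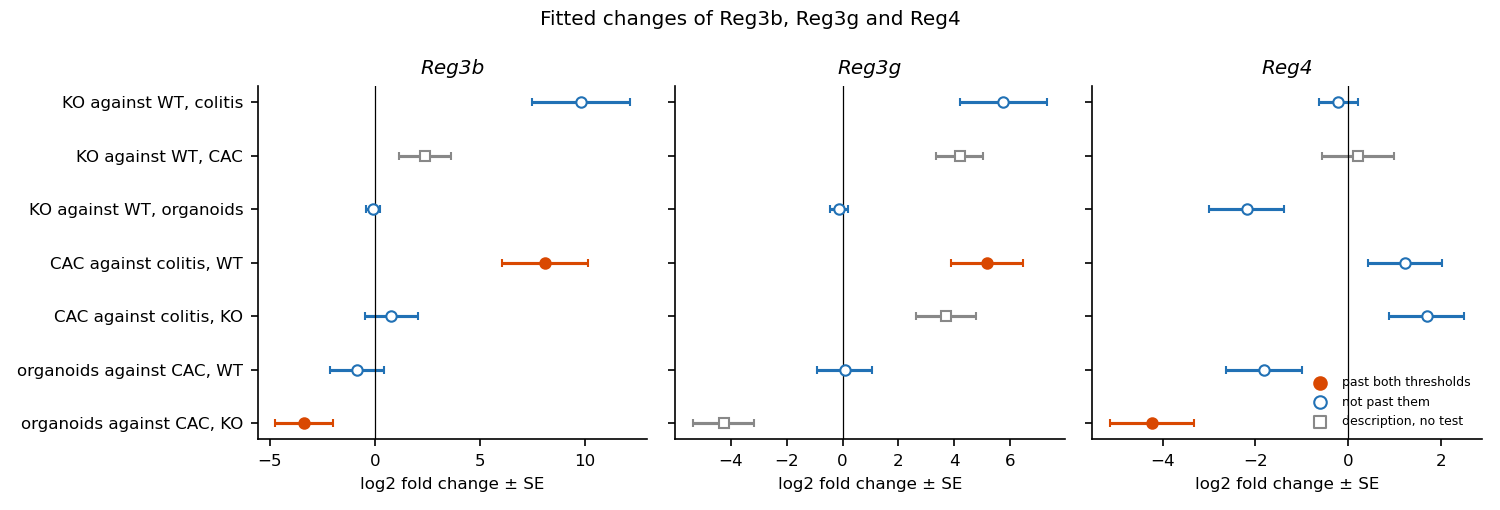
Log2 fold change with its SE from edgeR for Reg3b, Reg3g and Reg4 in the 3 comparisons of KO against wild type and the 4 comparisons between models, with 3 libraries a group; the scale differs between panels. Filled orange circles passed both thresholds, open blue circles did not, and grey squares are values given without a test because they bear on the choice of the genes. The circles of Reg3b and Reg4 for the KO comparisons between models also use the KO CAC libraries that bore on that choice.

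Organoids grown from CAC tumours held both Reg3 genes within one range in the 2 genotypes. Reg3b was at 20.6, 43.7 and 18.2 CPM in wild-type cultures and at 26.2, 22.0 and 32.5 CPM in KO cultures. Reg3g was at 15.8, 40.6 and 28.7 CPM in wild-type cultures and at 26.1, 21.2 and 33.4 CPM in KO cultures. The KO values lay inside the wild-type range for both genes. The log2 fold changes were -0.07 (SE 0.33, adjusted p = 0.882) and -0.12 (SE 0.32, adjusted p = 0.805). None of the 3 members that passed the filter was called by edgeR, where 15.0% of all genes were. Reg4 alone had an unadjusted edgeR p under 0.05 (0.0265), as did 7250 of all 15294 genes tested. DESeq2 called none of the 3 (adjusted p of Reg4 0.0916).

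Reg4 was at 11.5, 52.7 and 198 CPM in wild-type organoids and at 16.9, 18.3 and 23.8 CPM in KO organoids. The wild-type cultures were far apart and the KO cultures close together, and the ranges overlapped. The log2 fold change was -2.19 (SE 0.81, adjusted p = 0.0665). Without wild-type replicate 1 it was -2.69 (adjusted p = 0.00226), without wild-type replicate 3 it was -0.74 (adjusted p = 0.316), and without the filter on low counts the adjusted p was 0.0001. Lyz1, which encodes the lysozyme of Paneth cells, was at 20.1, 137 and 364 CPM in the same 3 wild-type cultures and at 18.1 to 22.7 CPM in the KO cultures. Of 9 Paneth cell markers, 6 fell with the KO label and none rose, where 15.0% of all genes were called. They summed to 785.5 to 1972 CPM in wild-type and 492 to 583.5 CPM in KO cultures, and their part in the level of Reg4 was not tested.

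The difference between the genotypes was set against that in colitis by an interaction contrast over all 18 libraries. The genotype effect was smaller in organoids than in colitis for Reg3b (difference of log2 fold changes -9.82, SE 2.44, adjusted p = 0.0262) and for Reg3g (-5.81, SE 1.61, adjusted p = 0.0398), and 5.71% of all genes were called in this contrast. Without KO colitis replicate 3 neither was called (-4.96, adjusted p = 0.0847, and -2.28, adjusted p = 0.172). The call of Reg3b was also lost without any one of 7 other libraries, namely wild-type colitis replicates 1 to 3, wild-type organoid replicate 2 and KO organoid replicates 1 to 3 (adjusted p between 0.0576 and 0.0706). That of Reg3g was lost without any of these or wild-type organoid replicate 3 (between 0.0648 and 0.1001). With the replicate block, Reg3b was still called (adjusted p = 0.0436) and Reg3g was not (adjusted p = 0.0578). Between CAC and colitis the same difference was -7.33 (SE 2.42) for Reg3b and -1.48 (SE 1.58) for Reg3g, given as descriptions. Both rested on KO colitis replicate 3, without which they were -2.48 for Reg3b and 2.04 for Reg3g, so that the direction turned for Reg3g.

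Against CAC tissue, organoids of the wild type did not differ beyond the spread in Reg3b (log2 fold change -0.87, SE 1.28, adjusted p = 0.575) or in Reg3g (0.08, SE 0.98, adjusted p = 0.951). Reg4 was lower by 1.81 on the log2 scale without being called (SE 0.82, adjusted p = 0.0659), and it was called without the filter (adjusted p = 0.0137), without wild-type CAC replicate 3 (0.011) and without wild-type organoid replicate 3 (0.0053). Of all genes 44.3% were called. Reg1, which passed the filter only through CAC, was called lower and had 0 counts in all 3 wild-type organoid libraries, at least 120-fold below the mean of wild-type CAC when 3 counts per library are taken as the floor. That mean was carried by the acinar-rich replicate 2, and without it the bound was 8.08-fold, with replicate 1 itself at 0 counts.

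In the KO, organoids held less Reg3b (-3.36, SE 1.38, edgeR adjusted p = 0.0453) and less Reg4 (-4.23, SE 0.91, adjusted p = 0.000889) than CAC tissue. These tests use the KO CAC libraries, whose Reg3g level bore on the choice of the members. Reg3b followed Reg3g over the 12 tissue libraries (r = 0.934), so its call is no independent result. The call of Reg3b was lost without any one of 5 of the 6 libraries (adjusted p between 0.0846 and 0.118), while that of Reg4 held under all 10 alternatives (highest adjusted p = 0.00607). The change of Reg3g was -4.25 (SE 1.10), a description. Of the 3 members tested, Reg3b and Reg4 were thus called and Reg1 was not (-4.05, SE 2.26, adjusted p = 0.136), where 44.4% of all genes were called. Organoids and both CAC groups are compared across a change from whole tissue to culture, and epithelial markers summed to 6118 to 11770 CPM in organoids against 7387 to 17500 CPM in CAC tissue. In the KO, all 10 goblet and deep crypt secretory markers fell from CAC to organoids (median -4.05), from sums of 2216 to 3485 CPM to 143 to 169 CPM. Of the 9 Paneth cell markers 8 fell and 1 rose, from 3770 to 6091 CPM to 492 to 583.5 CPM, and of the 10 smooth muscle markers 7 rose and none fell. Of 9 neutrophil markers 7 fell and 1 rose, from 174 to 397 CPM to 47.9 to 79.1 CPM. In the wild type, where 44.3% of all genes were called, all 10 goblet and deep crypt secretory markers, 9 of 10 smooth muscle markers and 7 of 9 neutrophil markers fell. The part of these markers in the changes of Reg3b and Reg4 was not tested.

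In order of the median level, Reg3b and Reg3g shared their ranking at both ends, with KO CAC highest (366 and 296 CPM) and wild-type colitis lowest (0.186 and 0.837 CPM). The organoid groups and wild-type CAC followed KO CAC with ranges that overlapped one another, and KO colitis came next, with a median of 5.69 CPM for Reg3b and 3.83 CPM for Reg3g. For Reg3g the range of KO CAC (236 to 1005 CPM) lay above that of every other group, a description only because this level bore on the choice of the members. For Reg3b (74.3 to 386 CPM) it overlapped those of wild-type CAC and KO colitis, though not that of the next group in the order, KO organoids. The range of KO colitis did not overlap that of wild-type colitis for either gene, and KO lay above the wild type for 8.86% of all genes tested there. Reg4 was highest in wild-type and KO CAC (medians 356 and 354 CPM), then in wild-type and KO colitis (105 and 85.9 CPM), then in wild-type and KO organoids (52.7 and 18.3 CPM), and of neighbours in this order only KO CAC and wild-type colitis did not overlap. KO organoids lay below every tissue library. No share over all genes was computed for separations between groups of different models, and nothing is read from them.

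Reg3b and Reg3g differed in their balance from library to library. In counts, there were 0.158 to 0.40 Reg3b reads per Reg3g read in wild-type colitis replicates 3 and 1, and 1.74, 1.48 and 4.19 in KO colitis replicates 1 to 3. In CAC the ratio was 0.355, 1.04 and 2.50 in the wild type and 1.24, 0.384 and 0.315 in the KO. In organoids it stayed between 0.635 and 1.30. The ratio was higher in the KO than in the wild type in every colitis library, and all 3 KO libraries of CAC lay within or below the wild-type range. Per kilobase of exon the median ratio over the 18 libraries was 1.89 when all annotated exons were counted (1142 bases for Reg3b and 2114 bases for Reg3g, which has a transcript with a retained intron) and 0.914 with exons of protein-coding transcripts alone (861 and 771 bases), so which of the genes is higher per length depends on the annotation.

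**Figure D4:**
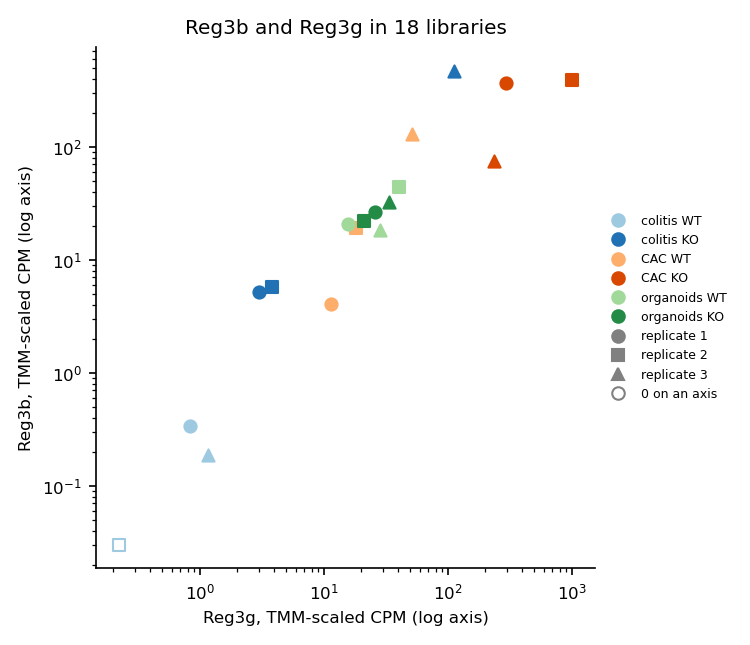
Reg3b against Reg3g, both as TMM-scaled CPM on log axes, in the 18 libraries, coloured by group with symbols by replicate number and an open symbol where Reg3b was at 0. The libraries climb together from wild-type colitis at the lower left to KO CAC at the upper right, and KO colitis replicate 3 lies above all CAC libraries on the Reg3b axis with 469 CPM, and between wild-type and KO CAC on the Reg3g axis with 112 CPM.

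Over the 12 tissue libraries, Reg3g was the gene most like Reg3b (r = 0.934), and the next were Slc22a3 (r = 0.913), Saa3 (r = 0.883), Pde11a (r = 0.883) and Soat2 (r = 0.858). Saa3, which encodes an acute-phase serum amyloid protein, was also among the 5 genes most like Reg3g (r = 0.915), after Bcl6b (r = 0.935) and Reg3b and before Epc2 (r = 0.91) and Itpr1 (r = 0.901). The genes most like Reg4 included Pmepa1 (r = 0.944), Wnt6 (r = 0.94), C1rl (r = 0.939) and Msx1 (r = 0.932). Between Reg4 and the Reg3 genes r was -0.308 (Reg3b) and -0.129 (Reg3g). All of these r contain the difference between the genotypes and rest on the same 12 libraries.

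Reg4 and the main goblet cell mucin parted in the KO CAC tissue. Muc2 was at 2986 to 13200 CPM in wild-type CAC and at 882 to 1232 CPM in KO CAC (log2 fold change -2.90, SE 0.58, adjusted p = 0.0426). There were 35.5, 40.1 and 32.9 Reg4 reads per 100 Muc2 reads in the KO CAC libraries and 11.9, 9.12 and 0.277 in the wild type. In colitis the ratio was 0.763 to 2.21 in all 6 libraries. In organoids, where Muc2 had 11.9 to 79.7 CPM, it was 57.5 to 249. The ratio was higher in every KO CAC library than in any other tissue library. Of the 10 markers of goblet and deep crypt secretory cells, 8 fell in KO CAC by edgeR and none rose, where 5.37% of all genes were called. Their median log2 fold change was -1.94, against 0.0056 over all genes. Those that fell included Clca1 (-5.40, adjusted p = 0.0381), Zg16 (-5.37, adjusted p = 0.0486) and Fcgbp (-3.88, adjusted p = 0.034), all 3 products of goblet cells.

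**Figure D5:**
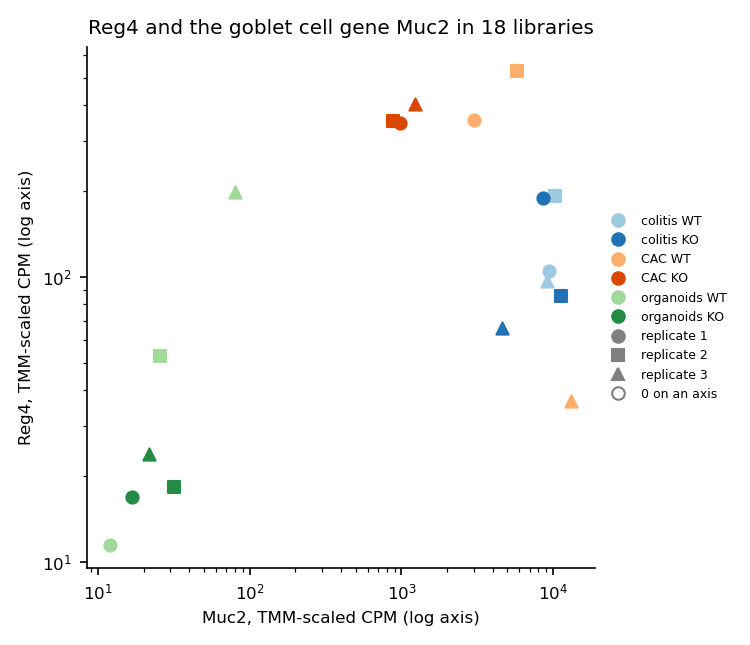
Reg4 against the goblet cell mucin gene Muc2, both as TMM-scaled CPM on log axes, in the 18 libraries, coloured by group with symbols by replicate number. The 3 KO CAC libraries (347 to 406 CPM of Reg4) lie to the left of all other tissue libraries, and replicate 3 of wild-type CAC lies lowest of the tissue libraries with 36.5 CPM of Reg4.

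The cytokines, receptors and transducers known to act on Reg genes were read from a list of 32 genes. In colitis none of the 25 that passed the filter was called by edgeR, where 0.0902% of all genes were, while DESeq2 called 1. An unadjusted edgeR p under 0.05 was found for 4 of the 25 and for 1731 of all 16623 genes tested. In CAC, 1 of 27 rose with the KO label and 3 fell (median log2 fold change 0.0021, against 0.0056 over all genes, of which 5.37% were called), and DESeq2 called 7. By edgeR no gene at all was called between the genotypes in CAC when KO replicate 1 or KO replicate 2 was left out or when a Y-linked covariate was added (3044, 2475 and 1544 genes then had an unadjusted p under 0.05 and a 2-fold change), and this covers every call between the genotypes in CAC given here. Il1b rose (2.05, SE 0.36, adjusted p = 0.0343), and Il22ra1, the signalling receptor chain for interleukin-22, fell (-1.49, SE 0.26, adjusted p = 0.0341). Il22ra2, the soluble decoy that captures interleukin-22, was at 0.0404 to 0.0531 CPM in KO CAC, 1 count in each library, against 2.35 to 9.65 CPM in wild-type CAC, and it was called lower (adjusted p = 0.0193). It passed the filter only through the wild type and could be called in no other direction, and the ratio of summed counts, wild type over KO, was 129 (exact 95% interval 43.6 to 628, counting error only). Il17rc, an interleukin-17 receptor chain, fell too (-1.83, SE 0.28, adjusted p = 0.0293).

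Il22 itself was at most at 0.478 CPM in any library and Il17a at most at 1.13 CPM, and neither passed the filter. Stat3 was at 150 to 165 CPM in wild-type CAC and 213 to 303 CPM in KO CAC without being called (0.55, SE 0.18, adjusted p = 0.097), and Socs3, a feedback inhibitor induced by STAT3, was at 15.9 to 40.1 and 65.1 to 130 CPM (1.60, SE 0.40, adjusted p = 0.0589). Osm (oncostatin M) was at 0.851 to 1.55 and 2.53 to 6.16 CPM (1.86, SE 0.45, adjusted p = 0.0555). Extl3 was at 40.4 to 78.5 and 65.2 to 80.1 CPM (0.31, SE 0.25, adjusted p = 0.404). In organoids Il6 was at 116 to 271 CPM and Il11 at 84.5 to 388 CPM, far above the tissue, where the highest values were 2.50 and 16.2 CPM. In organoids, where 15.0% of all genes were called and Reg3b and Reg3g of the KO lay within the wild-type range, 6 of 26 genes of the list rose with the KO label and 1 fell. Those that rose included Il1b (3.41, adjusted p = 0.0115), Osmr, the oncostatin M receptor (1.91, adjusted p = 0.00299), and Osm (adjusted p = 0.00429). Osm had 2 counts in all over the wild-type cultures and 97 over the KO cultures (ratio 46.6, exact 95% interval 12.6 to 390.2, counting error only). It passed the filter only through the KO, so that it could be called only as higher there. Il18 was the gene that fell (-1.18, adjusted p = 0.00811).

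Between CAC and colitis, where 13.6% of all genes were called in the wild type, 3 of 28 genes of this list rose in it and none fell, namely Il11 (3.36, adjusted p = 0.0151), Il23a (2.64, adjusted p = 0.0176) and Il1b (2.03, adjusted p = 0.00375). In the KO, 7 of 28 rose and 5 fell, where 37.1% of all genes were called. Organoids against CAC gave 9 rises and 8 falls among 28 in the wild type, where 44.3% of all genes were called, and 12 rises and 5 falls in the KO, where 44.4% were.

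Other defence genes of the epithelium moved in both directions where Reg3g was high. Of the 32 of the 34 listed genes that passed the filter in CAC, 2 rose with the KO label and 4 fell (median log2 fold change -0.38), where 5.37% of all genes were called, and DESeq2 called 20. Chil3 (2.14, adjusted p = 0.0245), a chitinase-like protein of macrophages, and Saa3 (1.46, adjusted p = 0.0381) rose. Zg16, Muc2 and Tff3 (-2.07, adjusted p = 0.0246), products of goblet cells, fell. Lcn2, an iron-sequestering antibacterial protein, was at 16.0 to 68.7 CPM in the wild type and 83.7 to 300.2 CPM in the KO without being called (1.91, SE 0.64, adjusted p = 0.0974). In colitis none of 24 listed genes was called by edgeR between the genotypes (0.0902% of all genes were). Of the 24, 12 had an unadjusted p under 0.05, as did 1731 of all 16623 genes tested. DESeq2 called 7, and its total over all genes is given below. Between CAC and colitis of the wild type, where Reg3b and Reg3g rose, 19 of 32 rose and none fell (median 3.19, against 0.04 over all genes, of which 13.6% were called), with S100a9 (9.38), Cxcl5 (7.94) and Retnlb (7.76) the 3 with the greatest changes. In the KO, where 37.1% of all genes were called, 14 of 32 rose and 11 fell, the falls led by Retnlb (-7.18), Mptx1 (-6.83) and Zg16 (-4.36). In organoids, where 15.0% of all genes were called, 2 of 28 rose with the KO label and 8 fell, with Itln1 (-3.28, adjusted p = 0.00297) and Ang4 (-2.55, adjusted p = 0.0337) among those that fell. Itln1, Ang4 and Lyz1 are also on the list of Paneth cell markers, of which 6 of 9 fell in this contrast and none rose (median -2.55).

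Markers of other cell types were read beside these values between the genotypes in CAC, where 5.37% of all genes were called by edgeR. Of 9 Paneth cell markers, which include Lyz1, 2 rose and none fell (median 2.601), and they summed to 3770 to 6091 CPM in KO against 1245 to 2462 CPM in wild-type CAC. Neutrophil markers summed to 174 to 397 CPM against 56.0 to 226 CPM, and 1 of 8 rose. All 10 smooth muscle markers fell (median -4.68). Of the 10 enteroendocrine markers 5 fell, of the 6 small-intestinal enterocyte markers 2 fell, and of the 3 proximal colon markers 2 fell. None of the 10 general epithelial markers, of the 5 distal colon markers, of the 3 acinar markers that passed the filter or of the 4 Y-linked genes was called by edgeR (5, 0, 2 and 1 had an unadjusted p under 0.05). Without that filter DESeq2 called 3 epithelial, 0 distal colon and 0 Y-linked genes of these lists, and 12 of the 14 listed acinar genes. Epcam was at 1403 to 2176 CPM in the wild type and 1423 to 1652 CPM in the KO. Among the lists with calls, an unadjusted p under 0.05 was found for 7 Paneth, 5 neutrophil, 10 smooth muscle, 8 enteroendocrine, 4 enterocyte and 3 proximal colon markers, and DESeq2 without the filter called 7, 5, 10, 8, 3 and 1 in these lists. The edgeR fit gave an unadjusted p under 0.05 for 6001 of all 17752 genes tested, and the DESeq2 total over all genes is given below. These markers moved with the same contrast as Reg3g and Reg3b, and their part in it was not tested.

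Markers of other cell types also moved between colitis and CAC of the wild type, where Reg3b, Reg3g and 19 of the 32 defence genes rose and 13.6% of all genes were called. Of 9 neutrophil markers 7 rose and none fell (median log2 fold change 5.245), S100a9 among them, and they summed to 23.7 to 32.6 CPM in colitis and 56.0 to 226 CPM in CAC, with Stfa2l1 at 0 in colitis and Elane at 0 in CAC. Ly6g was the highest of them in both groups, and the others summed to 3.48 to 3.71 CPM in colitis and 50.8 to 103 CPM in CAC. Of 9 Paneth cell markers 8 rose and none fell (median 7.12), and they summed to 204 to 259 CPM in colitis, where Defa17, Defa24 and Defa30 were at 0, and to 1245 to 2462 CPM in CAC. The colitis sum was carried by Nupr1 (mean 208 CPM), with 18.8 to 28.6 CPM for the other Paneth markers, and in CAC the highest was Ang4 (mean 1007 CPM). Of 11 acinar markers 9 rose and none fell (median 10.56), and they summed to 174.5 to 189.5 CPM in colitis, where 6 of the 14 listed were at 0, and to 178, 2158 and 188 CPM in CAC. Of 10 enteroendocrine markers 3 fell and none rose, and of 10 goblet and deep crypt secretory markers 2 fell and none rose. The part of all these markers in the rises of the Reg genes and of the defence genes was not tested.

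In the KO, 37.1% of all genes were called in the same comparison of CAC with colitis. Falls were called for 9 of 10 goblet and deep crypt secretory markers (12430 to 38000 CPM in colitis and 2216 to 3485 CPM in CAC), for all 10 smooth muscle markers (6171 to 17850 and 163 to 326 CPM) and for all 10 enteroendocrine markers (506 to 734 and 32.5 to 92.8 CPM). Of 9 neutrophil markers 7 rose (7.43 to 27.5 and 174 to 397 CPM), and of 9 Paneth cell markers 6 rose and 2 fell (176 to 3173 and 3770 to 6091 CPM). Their part in the levels of the Reg and defence genes was not tested.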

How the data were processed

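Counts of reads per gene were deposited by the authors as whole numbers without normalization for 36757 genes in 18 libraries. The submitters' processing notes name STAR 2.6.1d, HTSeq 0.11.2 and DESeq2, and the study's methods name mm10 and Gencode v.M8. Whether strand was used in counting is not given in the sources used here. A second deposited table holds the authors' own log2 fold changes and p-values, and it was not used. The members and gene lists were chosen with earlier results of these data known. Each model was fitted alone (6 libraries) with edgeR 4.0.16 in R 4.3.3 by filterByExpr, TMM, glmQLFit and glmQLFTest, and comparisons between models came from 1 fit of all 18 libraries. P-values were adjusted by Benjamini-Hochberg over all genes tested, and calls needed an adjusted p below 0.05 and a change of 2-fold or more. CPM were scaled by the TMM factors of the 18 libraries. Likeness used log2(CPM + 0.5) of genes with a mean of at least 1 CPM. Genes named beside the members were the 5 most like each member, fixed cytokine and receptor genes, and up to 3 per list and direction with the greatest called change. A gene among those most like Reg4 is not reported here. Genes named outside this rule, such as Lcn2, Retnlb and Lyz1 in single libraries, were chosen after their values were seen. Promoter stretches come from RefSeq (GRCm38.p6). The fits were tested on simulated data. No label says that libraries of a group came from separate animals, so p-values measure the spread between these libraries. Replicates differed by more than sampling noise (chi-square per degree of freedom at least 7.44). The labels do not pair libraries by replicate number. Deviations of same-numbered libraries correlated by 0.252, 0.107 and 0.538 in colitis, 0.0268 to 0.221 in CAC and -0.216 to 0.069 in organoids. The values of colitis and CAC overlap, so the replicate block is given as an alternative only. Alternatives were other size factors, no filter, DESeq2, a replicate block, a Y-linked covariate, a single fit, CPM without TMM and leaving out each library.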

Additional observations from a re-analysis of the deposited data

Results flagged for a closer look

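The genotype effect on Reg3b differed between organoids and colitis tissue by an interaction contrast (difference of log2 fold changes -9.82, adjusted p = 0.0262 by edgeR), and so did that on Reg3g (-5.81, adjusted p = 0.0398). In colitis all 3 KO libraries lay above all 3 wild-type libraries for both genes, as for 8.86% of all genes tested there, and in organoids all 3 KO libraries lay inside the range of the wild type. Over the 16 alternatives the adjusted p ran from 0.000114 to 0.0847 for Reg3b and from 0.00216 to 0.172 for Reg3g, and the highest of each came without KO colitis replicate 3. Y-linked genes were at 0 in all wild-type and present in all KO organoid libraries, so sex cannot be told apart from the genotype in this contrast.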

How the results depend on the processing

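Which genes were called in the tissue depended on the settings. In colitis, 15 genes were called by genotype, 354 with no filter on low counts, 325 by DESeq2, 89 with the replicate block, 177 with a Y-linked covariate and 0 to 147 when single libraries were left out (0 without wild-type replicate 3, where 729 genes had an unadjusted p below 0.05 and a 2-fold change). In CAC, 954 genes were called, 1641 with no filter, 2658 by DESeq2, 2834 in one fit of all libraries and 0 with a Y-linked covariate (1544 unadjusted), and 0 to 1136 without single libraries, the 0 being without KO replicate 1 or 2 (3044 and 2475 unadjusted). Leaving out single libraries gave 1515 to 3130 genes for the genotype in organoids, 1726 to 3147 for CAC against colitis in the wild type, 1399 to 3009 for the genotype effect in CAC minus colitis and 437 to 1626 for that in organoids minus colitis, where 2292, 2636, 2315 and 1108 were called with all libraries.

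Directions of the members turned only in comparisons where they were not called or were given without a test. Reg3b in organoids by genotype was 0.025 with the replicate block and ran from -0.30 to 0.44 without single libraries, and Reg3g there from -0.39 to 0.25. Organoids against CAC in the wild type gave 0.31 for Reg3b with the block and -1.43 to 1.23 without single libraries, and -0.30 to 0.92 for Reg3g. Reg4 by genotype in colitis ran from -0.78 to 0.16. Among descriptions, the genotype effect in CAC minus colitis ran from -8.31 to -2.48 for Reg3b, from -2.42 to 2.04 for Reg3g and from -0.062 to 1.07 for Reg4, and the genotype difference of Reg4 in CAC from -0.30 to 0.88 (-0.41 with a Y-linked covariate). The replicate block changed no call of a member other than those given above, and no label says that the numbers pair libraries. The mean of Reg4 without TMM was 455 CPM in KO CAC and 15.8 CPM in KO organoids, against 369 and 19.7 CPM with it. Depth limits Reg3a and wild-type colitis, where 3 counts were 0.123 to 0.261 CPM.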
